A study of Danio rerio with 24 samples.

Results

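The 12 knockout-labelled (KO) libraries of whole zebrafish embryos, of 24 libraries in the study, were divided by their level of aplnrb, the gene of an apelin receptor. The 6 lower-aplnrb pools were DMSO replicates 2 and 4, ML233 3 h replicates 3 and 4, and ML233 24 h replicates 2 and 4. The 6 higher-aplnrb pools were DMSO replicates 1 and 3, ML233 3 h replicates 1 and 2, and ML233 24 h replicates 1 and 3. Each treatment therefore held 2 pools of each set. Because measured aplnrb chose the sets, the differences between them are described without a test, and no label names a property that the pools of a set share.

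The study asked what ML233 does to gene expression in zebrafish embryos with and without apelin signalling; this compound is known as an agonist of the apelin receptor, and the series title names tyrosinase, the enzyme of melanin synthesis, as its target. Every library was labelled as RNA from 3 dpf embryos (days post fertilisation) and came from a pool of about 50. WT and KO groups of 4 libraries each received DMSO, the solvent, with a labelled time of 0 h, or 0.5 µM of ML233, collected after 3 h or 24 h. The KO line is named in 3 ways: sample titles give a receptor knockout, the growth protocol gives mutants of both receptor genes on the AB strain with WT controls sharing their grandparents, and the design text gives an apelin knockout. Insertions and deletions were read from Sanger traces of injected F0 fish, per the labels, but the alleles of the receptor mutants are not given there, and the only allele described, a 26-bp insertion with a stop at codon 18, belongs to the ligand gene apln. All 12 pools compared here carry that same KO label, so the 2 sets do not differ in labelled genotype.

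Apelin receptors are G protein-coupled receptors that bind the peptides apelin and Apela. In zebrafish the paralogs aplnra and aplnrb act early, in the migration of mesendoderm and of heart precursors, and later in endothelial cells. At the labelled age the embryo has a beating heart, a retina with differentiating photoreceptors, a transparent lens packed with crystallin, a functioning exocrine pancreas and liver, and circulating macrophages and neutrophils. In whole-embryo RNA, fewer cells of a type and less RNA per cell cannot be told apart.

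The guide RNAs used against the receptor genes are printed because their targets include the transcript that defines the sets. Sequences run 5′ to 3′ as the labels give them. The 10 bases at the 3′ end are in capitals, and Cas9 reads its PAM in the target DNA next to that end.

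aplnra: tgggtgtgacTACTCGGAGT
aplnrb: cttgcagagtGCCACGCCAA

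Each guide has 20 bases, with a GC content of 55.0% for aplnra and 60.0% for aplnrb. Whether the KO embryos carried a change at these targets cannot be read from gene counts.

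The transcript that defined the sets, aplnrb (ENSDARG00000036670, chromosome 10, 8629275 to 8631361), was at 10.6 ± 1.08 CPM (SD, n = 6) in the lower set, from 9.70 to 12.4 CPM. CPM are counts divided by the library size in M counts, after scaling of the sizes by TMM. The higher set had 16.8 ± 0.683 CPM (SD, n = 6), from 16.1 to 17.7 CPM, and the 12 WT libraries had 21.4 to 27.0 CPM. The pools nearest the division were ML233 24 h replicate 2 at 12.4 CPM and DMSO replicate 3 at 16.1 CPM, and every pool of either set lay below every WT library. The log2 difference, lower minus higher set with treatment as a block, was -0.67 (SE 0.0725).

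The paralog aplnra (ENSDARG00000002172, chromosome 8, 40325690 to 40327397) was ordered in the same way without having been used for the division. It was at 13.3, 15.2 and 16.8 CPM in the lower set, lowest to highest through the median, and at 17.2, 19.5 and 21.3 CPM in the higher set. The sets did not overlap, both lay below the WT range of 23.3 to 25.8 CPM, and the log2 difference was -0.36 (SE 0.0735). Of all 27010 tested genes, 10764 (39.9%) did not overlap within any treatment, in either direction, so nothing is read from this order. The ligand gene apln (ENSDARG00000053279, chromosome 14, 33722950 to 33757715) did not separate the pools, with 82.9, 88.7 and 93.9 CPM in the lower set and 85.2, 87.7 and 95.2 CPM in the higher set (log2 difference -0.01, SE 0.0474). The other ligand gene, apela, had no count in any of the 24 libraries, and with a floor of 3 counts the upper limit was 0.103 CPM in the smallest library after scaling.

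**Figure D1:**
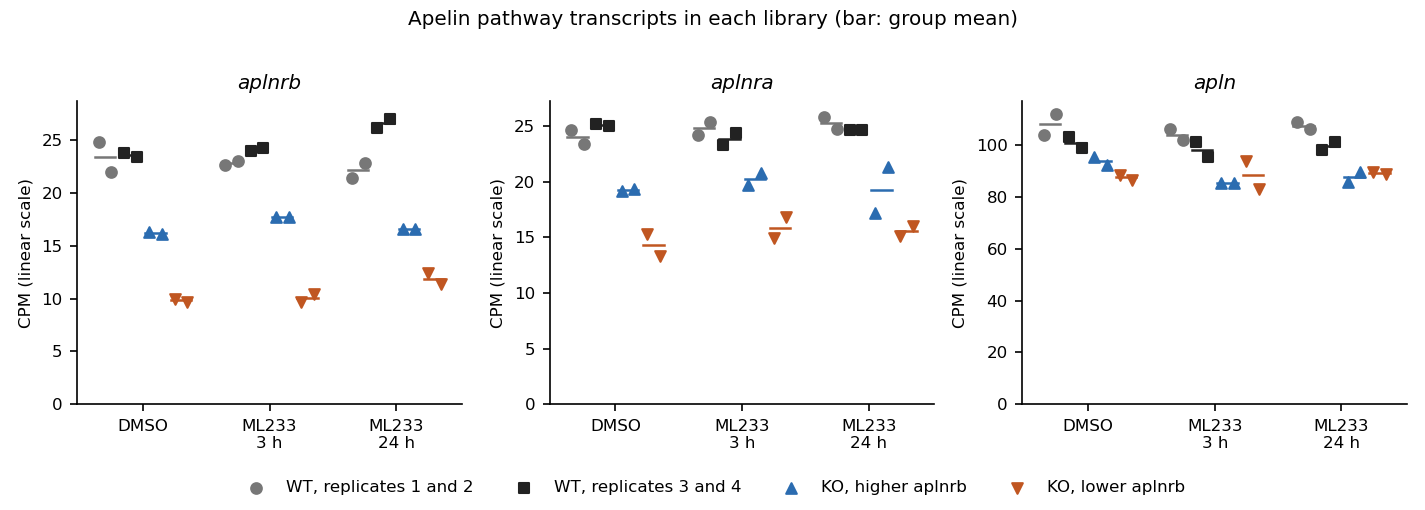
Levels of the receptor genes aplnrb and aplnra and of the ligand gene apln in each of the 24 libraries, as CPM on a linear axis by treatment; points are libraries and bars are group means. The lower-aplnrb pools sit below the higher-aplnrb pools for both receptors (at most 12.4 against at least 16.1 CPM for aplnrb), while the 2 sets overlap for apln.

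The libraries held 30.7 to 37.2 M counts on genes in the lower set, 29 to 43.4 M in the higher set and 29 to 37.2 M in WT. Several library properties moved with the sets. The TMM factor was 0.833 to 0.9997 in the lower set and 1.045 to 1.083 in the higher set, and the 10 most abundant genes took 11.2% to 13.6% of counts against 10.3% to 10.9%. Mitochondrially encoded genes took 5.54% to 6.53% against 5.31% to 5.76%. The number of genes with a count was 29153 to 30165 against 29967 to 30418. On the first principal component of the 12 KO libraries, which held 58.4% of the variance, the lower set lay at 21.2 to 129.8 and the higher set at -65.2 to -45.7. ML233 24 h replicate 2 was the pool at 129.8, with the next at 69.94. The part of these properties in the differences below was not tested.

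A gene was counted as separating when its log2 difference was at least 1 in size, that is 2-fold, and when in each of the 3 treatments both pools of a set lay above both of the other. This held for 3054 of 27010 genes with enough counts, or 11.3%. Of these, 1090 (4.04%) were higher and 1964 (7.27%) were lower in the lower-aplnrb set, with median log2 differences of 1.39 and -1.35, while the median over all genes was -0.01. Without the fold threshold, 10764 genes (39.9%) did not overlap in any treatment, so the sets differed over much of the transcriptome, and nothing is read from the counts themselves because the sets were chosen on these libraries. Scaling by total counts in place of TMM gave 713 higher and 2888 lower genes, a share of 19.8% higher against 35.7%, with a median over all genes of -0.21. Leaving out the 4 ML233 24 h libraries gave 1074 higher and 1298 lower genes.

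The directions differed in how they stood to wild type. For 811 of the 1090 higher genes (74.4%), all 6 lower-set pools lay above the range of the 12 WT libraries, and for 801 (73.5%) the median of the higher set lay inside that range. For 335 of the 1964 lower genes (17.1%), all 6 lower-set pools lay below the WT range, and for 1804 (91.9%) the higher-set median lay inside it. Transcripts more abundant in the lower-aplnrb pools were thus mostly above wild-type levels, whereas most of those less abundant there stayed within the wild-type range. These are descriptions of the same libraries that chose the sets.

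To describe tissues and pathways, 54 gene lists were read, 26 of cell type markers and 28 of pathways, with 1254 tested genes of which 18 stand in more than 1 list. A list's level in a library is the mean, over its tested members, of log2 CPM minus the mean of the 12 WT libraries. Many eye and exocrine pancreas transcripts, and some neuronal ones, were lower in the lower-aplnrb pools. Many transcripts of cholesterol synthesis, leukocytes, complement, cytokines, acute-phase signalling, ionocytes and pituitary hormones were higher.

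**Figure D2:**
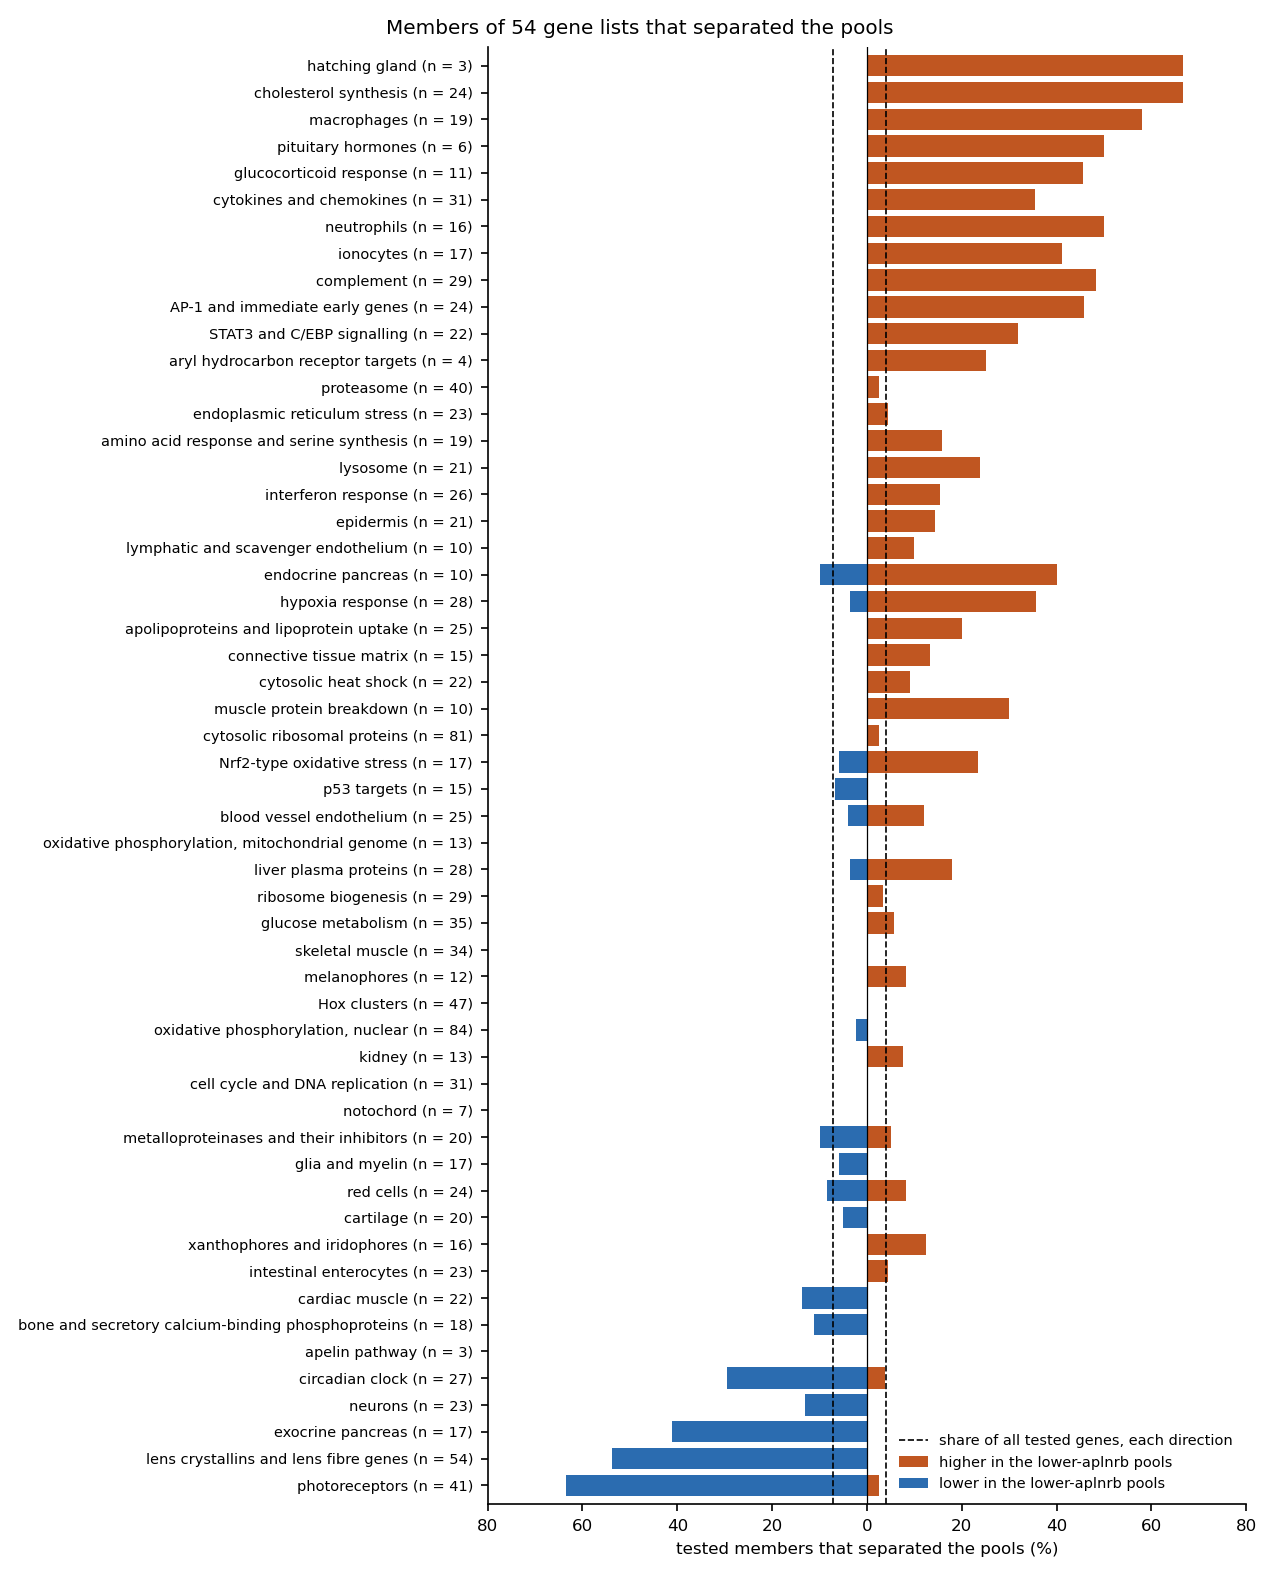
Share of tested members, in percent on a linear axis, of each gene list that separated the pools, to the right where higher and to the left where lower in the lower-aplnrb pools; dashed lines mark the shares over all tested genes (4.04% and 7.27%). Photoreceptor (63.4%) and lens (53.7%) genes lead the lower side and cholesterol synthesis (66.7%), macrophage (57.9%), neutrophil (50.0%) and pituitary hormone (50.0%) genes are at the top of the higher side among lists of more than 3 members.

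Photoreceptor genes were lower almost throughout the list. Of 41 tested members, 26 (63.4%) were separating and lower, 1 was separating and higher, and 39 had a negative log2 difference. The median log2 difference was -1.16, and it was -1.05 in DMSO, -1.19 at 3 h and -1.29 at 24 h. The list level was -1.26, -1.1 and -1.07 in the lower set and -0.10, -0.01 and 0.07 in the higher set, lowest to highest through the median, with WT libraries between -0.18 and 0.24. In 23 of the 26 lower genes all 6 lower-set pools lay below the WT range, and all 26 higher-set medians lay within it.

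The genes concerned belong to the phototransduction cascade of cones and rods. The cone opsin kinase gene grk7a (chromosome 2, 16536453 to 16544343) was at 21.7, 25.4 and 28.9 CPM in the lower set and at 92.6, 103 and 110 CPM in the higher set, against 77.4 to 134 CPM in WT (log2 difference -2.03, SE 0.077, a 4.08-fold lower level). The opsin kinase gene grk1b had a log2 difference of -1.95 (SE 0.0738), and guca1c, which encodes an activator of the guanylate cyclase that restores cGMP after light, one of -2.02 (SE 0.22). The sets were far apart for each, and grk7a and grk1b stayed outside the WT range in every lower-set pool. The inhibitory subunit gene of the cone phosphodiesterase, pde6ha (chromosome 6, 344423 to 346084), was at 17.1, 20.7 and 27.2 CPM against 85.5, 106 and 121 CPM (log2 difference -2.31, SE 0.112), but its WT libraries ran from 21.4 to 177 CPM and so reached into the lower set. For pde6ha the WT libraries were themselves divided, at 151 to 177 CPM in replicates 1 and 2 and 21.4 to 40.2 CPM in replicates 3 and 4. The log2 difference between these WT replicates was -2.37. Rod opsin, rho, named after its values were seen, was at 1380, 1700 and 1830 CPM against 2800, 3380 and 3740 CPM (log2 difference -1.03, SE 0.0797), with WT at 2380 to 3790 CPM. The axoneme gene rp1l1b (chromosome 20, 19119800 to 19148677), related to a photoreceptor microtubule protein, had the most negative log2 difference of the named genes, -3.39 (SE 0.27), at 0.314, 0.614 and 1.41 CPM against 5.33, 7.10 and 9.44 CPM.

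Lens genes were the other large group on the lower side. Of 54 tested members, 29 (53.7%) were separating and lower, none was separating and higher, and 51 had a negative log2 difference, with a median of -1.09. The list level was -1.22, -0.99 and -0.67 in the lower set and -0.17, 0.08 and 0.18 in the higher set, while WT libraries spanned -0.27 to 0.21. For 23 of the 29 genes the lower-set pools all lay below the WT range. The transcription factor gene hsf4 (chromosome 18, 22739732 to 22753637), which is needed for lens fibre differentiation in mammals, was at 0.846, 0.975 and 1.57 CPM against 3.46, 4.30 and 5.54 CPM (log2 difference -1.94, SE 0.195). The gamma-M crystallin genes crygm2d7, crygm5 and crygm2d5, which encode structural proteins of the fish lens, had log2 differences of -1.99 (SE 0.353), -1.86 (SE 0.169) and -1.55 (SE 0.129). Their sets did not overlap within any treatment, but the gamma-M crystallin genes include close copies, so the division of reads among them is uncertain.

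Neuronal genes were lower by less. All 23 tested members had a negative log2 difference, with a median of -0.59, and 3 (13.0%) were separating, or 1 without the 24 h libraries. The list level was -0.87, -0.67 and -0.54 in the lower set and -0.01, 0.01 and 0.10 in the higher set. The glutamate vesicle transporter gene slc17a6a was at 2.51, 11.7 and 15.4 CPM against 26.3, 30.3 and 34.5 CPM (log2 difference -1.6, SE 0.269). The intermediate filament gene inab was at 10.8, 17.2 and 18.9 CPM against 30.5, 34.7 and 37.9 CPM (log2 difference -1.08, SE 0.121). The synaptic vesicle gene vamp2 had 15.6 CPM in ML233 24 h replicate 2, the lowest of the set, a median of 54.3 and at most 67 CPM, against 88, 98 and 102 CPM (log2 difference -1.06, SE 0.223). The same pool thus held the extreme low values of this list. Among 17 glia and myelin genes 1 was separating, and the median was -0.12.

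Digestive enzymes of the exocrine pancreas were lower in the same pools. Of 17 tested members 7 (41.2%) were separating and lower and 16 were negative, with a median log2 difference of -0.90. The list level was -0.60, -0.54 and -0.41 against 0.06, 0.36 and 0.61. The WT libraries spanned -0.83 to 0.70 and so covered both sets. The lipase gene cel.1 (chromosome 21, 11401247 to 11411365) was at 95.7, 109 and 113 CPM against 226, 304 and 357 CPM (log2 difference -1.5, SE 0.0923), and its neighbour cel.2, the phospholipase gene pla2g1b and the elastase gene ela2l had log2 differences of -1.39, -1.43 and -1.38.

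Members of the endocrine pancreas list went both ways. Of 10 tested, 4 (40.0%) were separating and higher and 1 was lower, 6 were positive and 4 negative, and the median was 0.44, with 0.17 at 3 h. The glucagon genes gcga and gcgb had log2 differences of 2.30 (SE 0.181) and 2.33 (SE 0.135). The somatostatin gene sst2 was at 9.18, 9.63 and 17 CPM in the lower set and at 1.90, 2.03 and 2.26 CPM in the higher set (log2 difference 2.39, SE 0.132), with WT at 1.21 to 2.17 CPM. The lower member was pcsk1, which encodes a convertase of prohormones, at 9.44 ± 4.65 CPM (SD, n = 6) against 25.8 ± 3.01 CPM (SD, n = 6), with 1.56 CPM in ML233 24 h replicate 2 and no overlap (log2 difference -1.57, SE 0.312). Of 6 tested pituitary hormone genes 3 were separating, all higher. Prolactin, prl (chromosome 3, 32341917 to 32345900), which regulates ion balance in fresh-water fish, was at 19.5, 22.7 and 36.3 CPM against 2.27, 3.83 and 4.67 CPM (log2 difference 2.72, SE 0.201). The precursor gene of corticotropin, pomca, was at 8.05 to 12.8 CPM against 1.56 to 2.65 CPM (log2 difference 2.04, SE 0.133). For both genes every lower-set pool was above all 12 WT libraries.

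Cholesterol synthesis was the list with the highest median among those of more than 3 members. Of 24 tested members, 16 (66.7%) were separating and higher, none was lower, and the median log2 difference was 1.32, with 1.31 in DMSO, 1.5 at 3 h and 1.32 at 24 h. The list level was 1.15, 1.28 and 1.39 in the lower set and -0.31, -0.11 and -0.05 in the higher set, with WT libraries between -0.28 and 0.36. In all 16 genes the 6 lower-set pools lay above the WT range, and in 15 the higher-set median lay within it. HMG-CoA reductase, hmgcra (chromosome 5, 50972485 to 50992775), the rate-limiting enzyme of the pathway, was at 21.4, 27.1 and 30.5 CPM against 2.0, 3.07 and 4.08 CPM (log2 difference 3.12, SE 0.185, 8.71-fold).

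The later enzymes of the pathway were higher with it. Squalene epoxidase, sqlea (chromosome 16, 43401005 to 43413293), was at 40.8, 49.1 and 58.1 CPM against 3.89, 6.92 and 7.77 CPM (log2 difference 2.88, SE 0.109). The lanosterol demethylase gene cyp51 was at 149, 154 and 179 CPM against 19.1, 27.4 and 34.7 CPM (log2 difference 2.52, SE 0.107). The methylsterol oxidase gene msmo1 was at 35.7, 41.5 and 55.0 CPM against 6.19, 8.22 and 9.36 CPM (log2 difference 2.47, SE 0.108). No lower-set pool of these 4 genes came near a higher-set pool. Among 25 apolipoprotein and lipoprotein uptake genes 5 were separating and higher, led by hepatic lipase lipca (log2 difference 1.46) and the cholesterol acyltransferase gene lcat (1.42), with a list median of 0.43; without the 24 h libraries 2 were separating.

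Leukocyte genes were higher in the lower-aplnrb pools. Of 19 tested macrophage markers 11 (57.9%) were separating and higher, with a median log2 difference of 1.25, and of 16 neutrophil markers 8 (50.0%), with a median of 1.07. No member of either list was separating and lower. The macrophage level was 1.32, 1.37 and 1.56 against 0.28, 0.32 and 0.47, and the neutrophil level 1.23, 1.31 and 1.41 against 0.26, 0.39 and 0.46. WT libraries did not exceed 0.29 and 0.15. The higher-aplnrb pools were therefore themselves near or above the top of the WT range for these lists.

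The macrophage transcription factor gene irf8 (chromosome 18, 30567945 to 30573849) was at 10.6, 11.0 and 13.9 CPM against 2.97, 3.52 and 3.78 CPM, with WT at 2.08 to 3.44 CPM (log2 difference 1.76, SE 0.103). The protease gene ctss2.1, of the cathepsin S family, was at 27.4, 33.4 and 39.7 CPM against 2.81, 4.07 and 4.74 CPM (log2 difference 3.08, SE 0.139). The scavenger receptor gene marco and the leukocyte actin-bundling gene lcp1 had log2 differences of 1.86 and 1.59. In neutrophils, the myeloperoxidase gene mpx (chromosome 10, 7778870 to 7785945) was at 55.2, 62.9 and 71.4 CPM against 21.8, 24.2 and 28.1 CPM (log2 difference 1.38, SE 0.069). The granule proteoglycan gene srgn, the surface protease gene adam8a and lect2l, a chemotaxin-like gene, had log2 differences of 1.40, 1.51 and 1.35. Among 21 lysosome genes 5 (23.8%) were separating and higher, with cathepsin L, ctsla, at 1270, 1480 and 2040 CPM against 465, 624 and 635 CPM.

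Complement was higher as a group, from its central component to its regulators. Of 29 tested members 14 (48.3%) were separating and higher, none was lower, and the median log2 difference was 0.88. The list level was 1.24, 1.43 and 1.5 against 0.22, 0.38 and 0.41, and all 14 genes had their lower-set pools above the WT range. A gene of the central component C3, c3a.2 (chromosome 1, 56229674 to 56266731), was at 192, 233 and 272 CPM against 41.0, 44.4 and 57.2 CPM (log2 difference 2.30, SE 0.0854). The terminal component gene c7a had a log2 difference of 2.35 (SE 0.155). The factor H gene cfh, an inhibitor of the cascade, was at 13.7 ± 2.54 CPM (SD, n = 6) against 1.92 ± 0.534 CPM (SD, n = 6) (log2 difference 2.82, SE 0.169), and cfhl5, of the same family, had 2.29 (SE 0.129). Factor H genes lie side by side on chromosome 22 and resemble each other, so reads may be split among them.

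Cytokine genes followed. Of 31 tested cytokine and chemokine genes 11 (35.5%) were separating and higher, 29 were positive, and the median was 1.1. The level was 1.78, 2.29 and 2.45 against 0.71, 0.95 and 1.38, and WT libraries did not exceed 0.28. The chemokine gene ccl34a.4 (chromosome 2, 40199002 to 40199780) was at 9.08, 15.0 and 19.8 CPM against 0.76, 1.18 and 1.73 CPM (log2 difference 3.56, SE 0.229, 11.8-fold). The neutrophil chemokine genes cxcl8b.1, cxcl8b.3 and cxcl18a.1 had log2 differences of 2.04, 1.81 and 1.80. Interleukin 1 beta, il1b, named after its values were seen, ran from 9.45 to 69.0 CPM in the lower set and from 1.39 to 20.2 CPM in the higher set, so the sets overlapped and it was not separating. The metalloproteinase gene mmp9, likewise named afterwards, overlapped at 148 to 418 CPM against 31.1 to 205 CPM, and all 12 KO pools exceeded its WT range of 7.97 to 15.3 CPM.

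Part of the signalling genes downstream of interleukin receptors, and a few acute-phase products of the liver, were also higher. Of 22 STAT3 and C/EBP genes 7 (31.8%) were separating and higher, 21 were positive, and the median was 0.73. The feedback inhibitor gene socs3a was at 110, 162 and 178 CPM against 17.3, 26.5 and 38.5 CPM (log2 difference 2.46, SE 0.166), and its paralog socs3b had a log2 difference of 1.99 (SE 0.154). The transcription factor gene cebpb (chromosome 8, 28448267 to 28449782) was at 200, 253 and 299 CPM against 50.4, 66.2 and 92.0 CPM (log2 difference 1.92, SE 0.142). Among 28 liver plasma protein genes 5 (17.9%) were separating and higher and 1 was lower, and 20 were positive and 8 negative. The list median of 0.30 was 0.10 under total-count scaling. The 4 with the largest difference were agt, the angiotensinogen gene (log2 difference 1.91), and the fibrinogen genes fgb (1.81), fga (1.78) and fgg (1.75). For fga (chromosome 1, 10063501 to 10071539) the levels were 930, 1140 and 1240 CPM against 287, 334 and 342 CPM, with WT at 255 to 307 CPM. Of 26 interferon response genes 4 (15.4%) were separating and higher, among them stat1b with a log2 difference of 2.38.

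Transcripts tied to stress hormones and to low oxygen were higher in part. Of 11 glucocorticoid response genes 5 (45.5%) were separating and higher, with a median of 1.12. The receptor co-chaperone gene fkbp5 (chromosome 6, 41096058 to 41117242) was at 184, 203 and 224 CPM against 40.4, 51.7 and 108 CPM, with WT at 24.9 to 102 CPM (log2 difference 1.82, SE 0.168). The gluconeogenic enzyme gene pck1 was at 793, 967 and 1120 CPM against 234, 256 and 341 CPM (log2 difference 1.82, SE 0.092), and the kinase gene sgk1 had 1.54 (SE 0.0813). Of 28 hypoxia response genes 10 (35.7%) were separating and higher and 1 was lower, with a median of 0.44. Those named were adma, the adrenomedullin gene (log2 difference 2.36), egln3, an oxygen-dependent prolyl hydroxylase gene (2.22), and igfbp1b, which encodes a binding protein of insulin-like growth factor (2.04). The lower member was the glucose transporter gene slc2a1a, at 0.627, 1.27 and 1.96 CPM against 7.08, 8.18 and 12.5 CPM (log2 difference -2.83, SE 0.233). Of 17 Nrf2-type genes 4 (23.5%) were separating and higher, led by the thioredoxin gene txn (1.5) and with 2 left without the 24 h libraries, and of 22 cytosolic heat shock genes 2 (9.09%), the chaperone genes hspa8 (1.47) and hspb1 (1.18).

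Genes of epithelial ion transport stood out among the tissue lists on the higher side. Of 17 tested ionocyte genes 7 (41.2%) were separating and higher, none was lower, and the median was 0.97. The level was 0.72, 0.84 and 0.94 against 0.03, 0.12 and 0.17. The sodium chloride cotransporter gene slc12a10.2 (chromosome 7, 4332430 to 4380448) was at 76.5, 91.6 and 98.6 CPM against 28.2, 31.6 and 32.8 CPM, with WT at 22.6 to 34.8 CPM (log2 difference 1.52, SE 0.058). The clustered sodium pump genes atp1a1a.2, atp1a1a.3 and atp1a1a.5, which are close paralogs, had log2 differences of 1.31, 1.25 and 1.3. Of 21 epidermis genes 3 (14.3%) were separating and higher, including tp63, the regulator of basal epidermis (1.07), and none without the 24 h libraries.

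In the tissues where apelin receptors are known to act, the list medians were smaller in size than for the eye, leukocyte and cholesterol lists. In each of the lists of this paragraph, every lower-set pool still lay outside the WT range of levels. Of 25 blood vessel endothelium genes 3 were separating and higher and 1 was lower, with a median of 0.35. The tight junction gene cldn5b was at 53.3, 65.2 and 73.9 CPM against 18.5, 20.9 and 24.4 CPM (log2 difference 1.61, SE 0.0747), pecam1 had 1.14, plvapb had 1.51, and vwf, the von Willebrand factor gene, had -1.01. Of 10 lymphatic and scavenger endothelium genes 1 was separating and higher, and the median was 0.48. This was the hyaluronan receptor gene lyve1a of lymphatic vessels, with a log2 difference of 2.07 (SE 0.267). Of 22 cardiac muscle genes 3 (13.6%) were separating, all lower, and the median was -0.26. The list level was -0.25, -0.23 and -0.19 against 0.05, 0.14 and 0.24, with WT at -0.12 to 0.10. The sodium-calcium exchanger gene slc8a1a was at 1.56, 3.54 and 4.74 CPM against 6.07, 6.86 and 7.28 CPM (log2 difference -1.04, SE 0.177). The natriuretic peptide gene nppa, named after its values were seen, had a log2 difference of 0.05 (SE 0.145). The cardiac actin symbol actc1a stands for 2 genes in the table that went in opposite directions, as described under the other observations.

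Most of the remaining lists held few separating genes in number. Their shares stand beside 4.04% higher and 7.27% lower over all tested genes, and several short lists exceeded these. Among tissues, connective tissue matrix had 2 of 15 genes (13.3%) separating and higher (median log2 difference 0.41), the fibronectin genes fn1a (1.23) and fn1b (1.0). Kidney had 1 of 13 (7.69%, median 0.23). Red cell genes were split, with 2 of 24 (8.33%) higher and 2 (8.33%) lower and a median of -0.13. Their log2 differences ran from -1.14 to 5.43. The 2 higher members also differed at least 2-fold in the same direction between WT replicates 3 and 4 and replicates 1 and 2. The lower members were ank1a, which encodes a membrane skeleton protein (-1.14), and the transferrin receptor gene tfr1a (-1.12). Bone genes had 2 of 18 lower (median -0.30), and cartilage 1 of 20 (-0.14), the aggrecan gene acanb at -1.18. Xanthophore and iridophore genes had 2 of 16 (12.5%) higher, the pigment synthesis genes gch2 (1.59) and paics (1.47), with a list median of -0.17. WT libraries were divided in the same direction for both, with log2 differences of 1.5 and 0.82 for replicates 3 and 4 minus 1 and 2. The gch2 WT range of 9.91 to 57.1 CPM held every lower-set pool (32.0 to 46.1 CPM). Only 3 hatching gland genes were tested, of which 2 (66.7%) were higher.

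Among pathways, amino acid response and serine synthesis had 3 of 19 genes (15.8%) higher (median 0.52), namely trib3 and the stress regulators ddit4 (1.4) and sesn2 (1.05). Muscle protein breakdown had 3 of 10 (30.0%) higher (median 0.41), with the ubiquitin ligase gene fbxo32 at 1.27. The endoplasmic reticulum stress list had 1 of 23 higher (4.35%, median 0.52), ribosome biogenesis 1 of 29 (3.45%, median 0.30) and glucose metabolism 2 of 35 (5.71%, median 0.26). Aryl hydrocarbon receptor targets had 1 of 4 higher (25.0%), cyp1c2 (1.28). Nuclear genes of oxidative phosphorylation had 2 of 84 (2.38%) lower although 74 were positive (median 0.23). The p53 targets had 1 of 15 (6.67%) lower although 14 were positive (median 0.36). Metalloproteinases and their inhibitors had a median of 0.01, with 1 of 20 higher and 2 lower. The higher gene was the inhibitor gene timp2b, at 270, 343 and 438 CPM against 49.6, 98.6 and 178 CPM, and all 12 KO pools exceeded its highest WT level of 29.9 CPM.

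Without the 24 h libraries no kidney, cartilage, endoplasmic reticulum stress or ribosome biogenesis gene and no lower red cell gene was separating. Under total-count scaling the list medians moved down by about the shift of all genes, so that small positive medians came near 0 (0.02 for nuclear oxidative phosphorylation, 0.05 for glucose metabolism). The endoplasmic reticulum stress list had a median of 0.46 between the WT replicates.

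Several large lists held no separating gene. These were skeletal muscle (34 tested, median log2 difference 0.25), the Hox clusters (47, 0.24), cell cycle and DNA replication (31, 0.15), mitochondrially encoded oxidative phosphorylation (13, 0.32) and notochord (7, 0.02). The signs of the cell cycle, notochord, intestinal enterocyte and metalloproteinase medians changed under at least 1 alternative setting. Of 81 cytosolic ribosomal protein genes 2 were separating and higher, under the share over all genes, and none without the 24 h libraries. Their median of 0.40, with 79 positive, was 0.19 under total-count scaling and 0.18 at 3 h. Proteasome genes had 1 of 40 separating and a median of 0.54, against 0.55 between WT replicates 3 and 4 and replicates 1 and 2, a division described below with the early and clock genes. Of 12 melanophore genes 1 was separating, and tyr, the tyrosinase gene, named after its values were seen, was at 3.19 to 8.70 CPM in the lower set and 5.15 to 8.15 CPM in the higher set (log2 difference -0.06, SE 0.199).

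**Figure D3:**
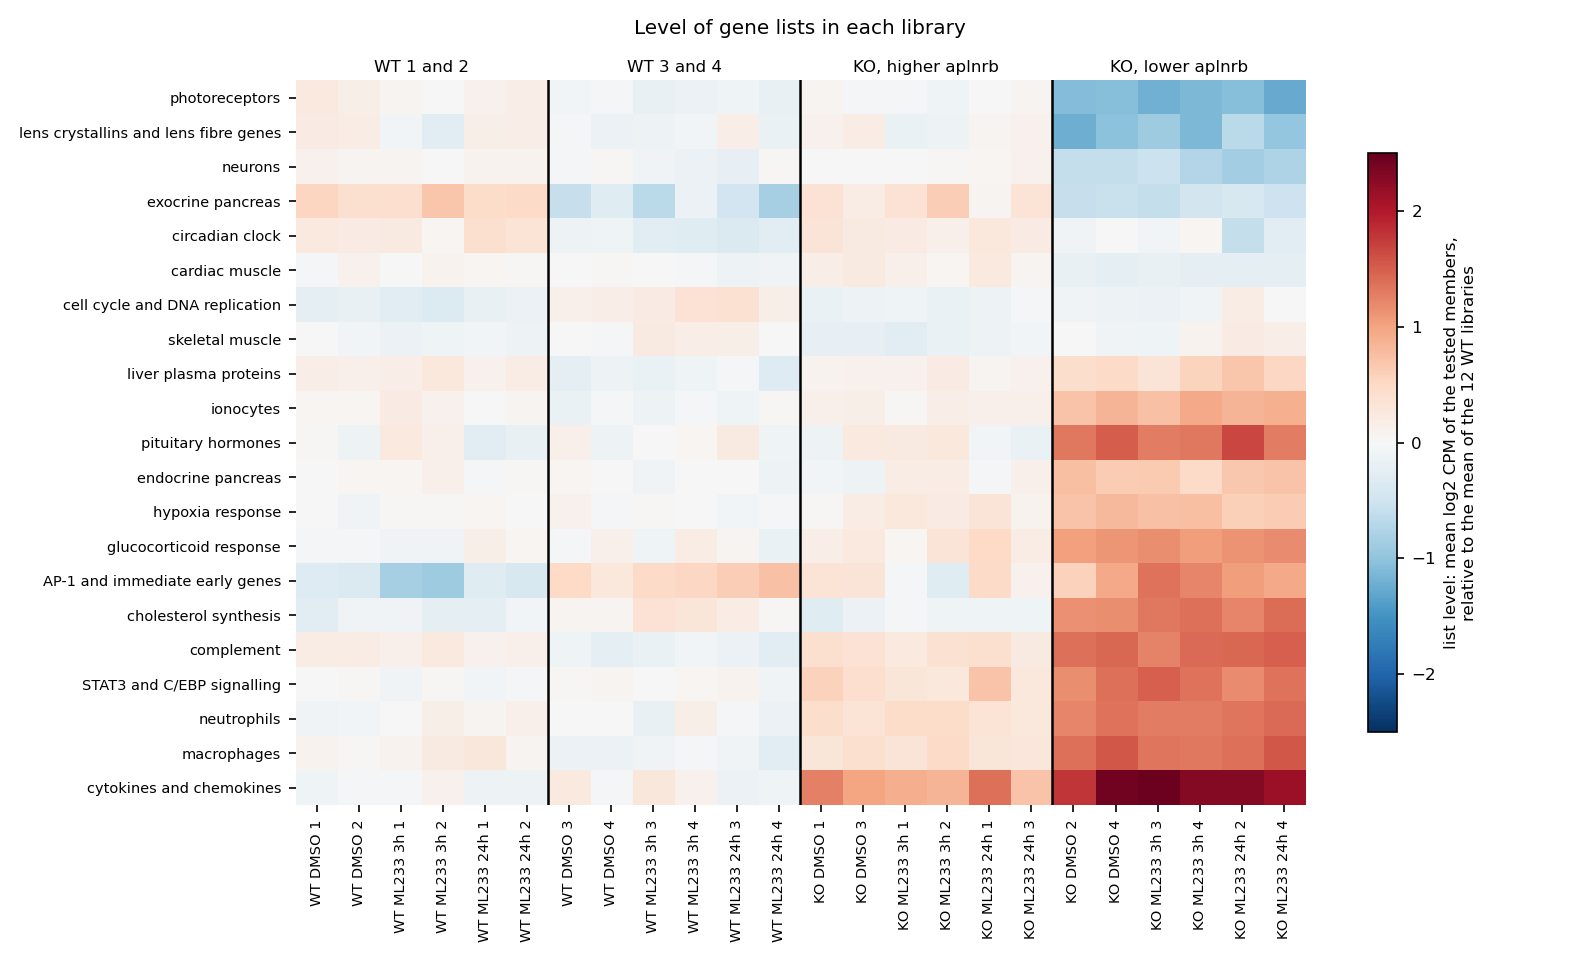
List levels of gene lists in each of the 24 libraries, as the mean log2 CPM of members minus the WT mean, on a linear colour scale centred at 0. The 6 lower-aplnrb pools are below 0 for photoreceptors (-1.26 to -1.07) and lens (-1.22 to -0.67) and above 0 for cholesterol synthesis (1.15 to 1.39) and macrophages (1.32 to 1.56), while most lists of the higher-aplnrb pools stay nearer to 0.

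Immediate early genes and clock genes separated the KO pools too, but for these the WT libraries were divided in the same way. In an earlier analysis of these data WT replicates 3 and 4 of every treatment stood apart from replicates 1 and 2, and this division, which no label explains, was used here only to describe. Of 24 AP-1 and immediate early genes 11 (45.8%) were separating and higher, with a median of 0.88, and the median difference between WT replicates 3 and 4 and replicates 1 and 2 was 0.94. The AP-1 subunit gene junba was at 95.7, 136 and 161 CPM against 23.1, 27.7 and 43.6 CPM, above its WT range of 11.6 to 26.3 CPM (log2 difference 2.12, SE 0.166). Its paralog junbb had 1.85 (SE 0.167), and the early gene ier2a had 1.63 (SE 0.181). For fosab, another AP-1 subunit gene, the lower set had 28.8, 54.7 and 79.2 CPM and the higher set 4.03, 11.9 and 14.1 CPM (log2 difference 2.28, SE 0.326), but the WT range of 1.45 to 63.0 CPM overlapped both. Of the 11 genes, 5 had all lower-set pools above the WT range.

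Of 27 clock genes 8 (29.6%) were separating and lower and 1 was higher, with a median of -0.40 in the KO sets and -0.59 between the WT replicates. The period gene per3 (chromosome 11, 39959039 to 40021080), which encodes a repressor in the clock's feedback loop, was at 14, 17 and 18.4 CPM against 77.5, 83.3 and 90.9 CPM (log2 difference -2.32, SE 0.0624). In WT, per3 was at 80.7 to 93.6 CPM in replicates 1 and 2 and at 12.9 to 16.5 CPM in replicates 3 and 4. The paralog per1b was at 5.24, 6.68 and 11.3 CPM against 33.4 to 41.2 CPM with a mean of 37.8 (log2 difference -2.42, SE 0.147), with WT at 35.5 to 41.3 CPM in replicates 1 and 2 and 4.53 to 5.83 CPM in replicates 3 and 4. The WT libraries thus took the same 2 levels as the KO sets. The nuclear receptor genes nr1d1 and nr1d4b had log2 differences of -1.66 and 1.65. None of the 8 lower genes was below the WT range in all lower-set pools, and 6 of them differed at least 2-fold in the same direction in WT. The labels give no hour of collection.

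Over all 1964 lower genes, 1865 (95.0%) were also lower in WT replicates 3 and 4 than in 1 and 2, and 824 (42.0%) by at least 2-fold, with a median log2 difference of -0.90 in WT. Over the 1090 higher genes, 701 (64.3%) were also higher there, 104 (9.54%) by at least 2-fold, with a WT median of 0.20. Over all 27010 genes, 51.8% were lower in WT replicates 3 and 4, 6.45% by at least 2-fold, and 1.53% were higher by at least 2-fold. By list, the WT difference had a median of -1.07 for the exocrine pancreas and -0.29 for photoreceptors, -0.18 for lens, 0.33 for cholesterol synthesis, -0.03 for macrophages, -0.13 for complement and -0.26 for ionocytes. In WT, none of the separating 16 cholesterol, 11 macrophage, 8 neutrophil and 14 complement genes differed by at least 2-fold in the same direction. Of the 26 photoreceptor and 29 lens genes 2 of each did. So did 3 of 11 separating cytokine genes, 1 of 7 STAT3 and C/EBP genes and 1 of 5 glucocorticoid response genes. The WT log2 difference was 1.4 for socs3a and 1.19 for fkbp5.

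**Figure D4:**
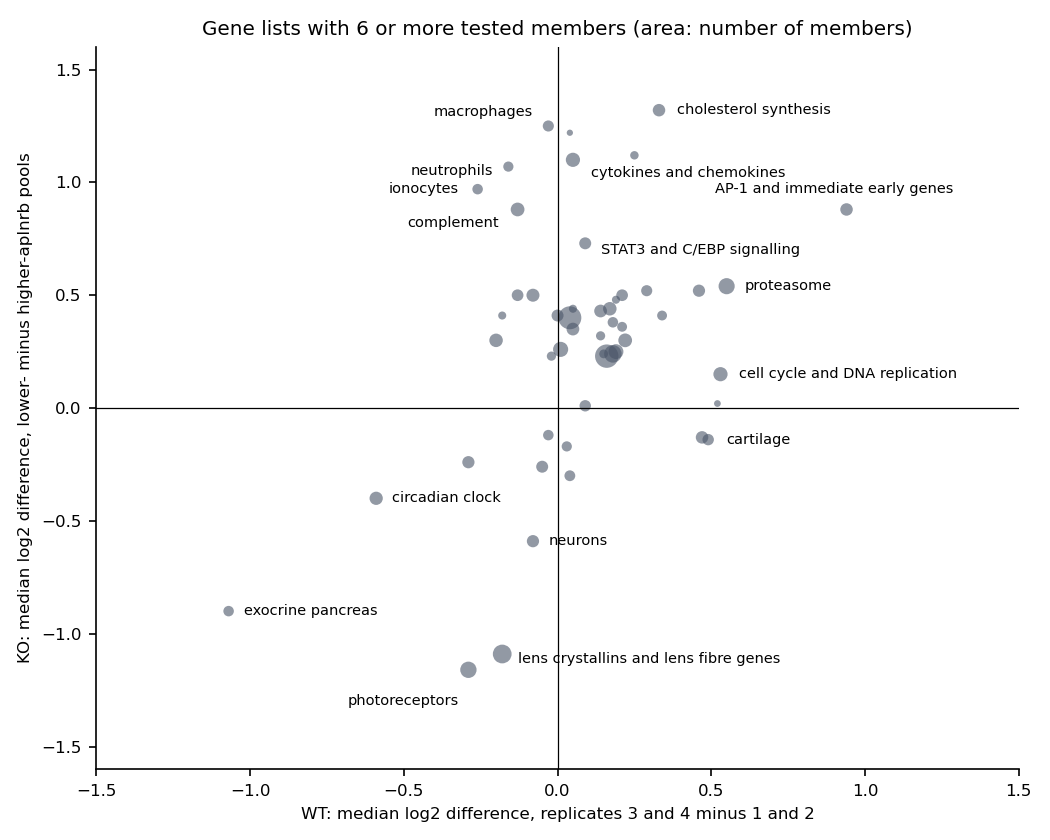
Median log2 difference of each gene list between the KO sets (vertical axis, lower- minus higher-aplnrb pools) against the median between WT libraries (horizontal axis, replicates 3 and 4 minus 1 and 2), both linear, with point area for the number of members. Exocrine pancreas (-0.90 and -1.07) and immediate early genes (0.88 and 0.94) lie away from 0 on both axes, whereas macrophages (1.25 and -0.03) and photoreceptors (-1.16 and -0.29) lie away from 0 mainly on the vertical axis.

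Some genes with the largest differences were not named above. Of the 8 largest positive among separating protein-coding genes whose log2 CPM averaged 1 or more, si:dkey-8k3.2 (chromosome 16, 16665203 to 16701718) was at 174, 206 and 249 CPM against 22.5, 30.1 and 34.9 CPM, with WT at 9.62 to 13.9 CPM (log2 difference 2.80, SE 0.126). The gene mfap4 was at 8.22, 9.66 and 12 CPM against 1.27, 1.39 and 1.88 CPM (log2 difference 2.77, SE 0.134). The hatching enzyme gene he1.1 had the largest value of these 8, 4.05 (SE 0.649), at 4.83, 5.92 and 34.9 CPM against 0.0319, 0.44 and 1.29 CPM, with the 34.9 CPM in ML233 24 h replicate 2. The sets did not overlap for these 3 genes. Both he1.1 and the other separating gene of the hatching gland list, 2 in all, also differed at least 2-fold in the same direction in WT. Of the 8 largest negative, the neighbouring genes ENSDARG00000102406 and CABZ01044277.1 on chromosome 13 had -3.24 (SE 0.388) and -3.06 (SE 0.372), and zgc:92590 had -2.96 (SE 0.279). The glutamate transporter gene slc1a8b was at 0.747, 1.04 and 1.29 CPM against 6.27, 7.82 and 8.28 CPM (log2 difference -2.86, SE 0.139), and in WT it was at 6.87 to 9.30 CPM in replicates 1 and 2 and 1.01 to 1.91 CPM in replicates 3 and 4.

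The difference between ML233 and DMSO was not used to form the sets and was tested with the set as a block. Every DMSO library carries a labelled time of 0 h, so in these contrasts ML233 and elapsed time cannot be told apart. The effect of ML233 below means the difference from DMSO. At 3 h against DMSO no gene (0% of 27010) had an edgeR quasi-likelihood adjusted p under 0.05, against 1060 at an unadjusted p under 0.05, and DESeq2 called 1 gene. At 24 h no gene (0%) passed in edgeR, against 2176 at an unadjusted p under 0.05, and DESeq2 called 10. The labels call the 4 libraries of a group biological replicates but do not show that the 2 pools of a set were independent, so these p-values measure the spread between these samples. The interaction and the contrasts within a set below use sets chosen from measured values of these same libraries. Their p-values do not allow for that choice, so the calls are given as a description.

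At 3 h the effect of ML233 differed between the sets for a few single genes. The interaction of set and ML233 was past an edgeR adjusted p of 0.05 for 7 genes, 0.0259% of those tested, in all of which the effect of ML233 was more positive in the lower-aplnrb pools. The activity-dependent transcription factor gene npas4a (chromosome 14, 30636955 to 30642819) was at 31.9 and 30.4 CPM in the DMSO pools of the higher-aplnrb set, at 7.38 and 4.98 CPM after 3 h of ML233 and at 25.3 and 27.2 CPM after 24 h. The lower-aplnrb set had 13.1 and 17.7 CPM with DMSO, then 29.7 and 25.7 CPM after 3 h, then 18.7 and 20.4 CPM after 24 h. At 3 h it was thus below every DMSO value of its set in the higher-aplnrb pools and above every DMSO value of its set in the lower-aplnrb pools, which is a log2 difference of effects of 3.18 (SE 0.257, edgeR adjusted p = 0.000948). The transcription factor gene egr4 (chromosome 23, 45579497 to 45581626) went from 15.6 and 17.8 CPM to 5.79 and 4.98 CPM in the higher-aplnrb pools and from 8.5 and 11.7 CPM to 20.2 and 20.6 CPM in the lower-aplnrb pools, a difference of effects of 2.64 (SE 0.219, edgeR adjusted p = 0.000948). For its relative egr1 the difference was 1.69 (SE 0.161, edgeR adjusted p = 0.0027).

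The other 4 genes were gadd45ba, a stress-induced regulator of growth arrest (1.3, SE 0.15), dusp1, a phosphatase gene of MAP kinases (1.11, SE 0.139), btg2, an antiproliferative gene (1.19, SE 0.154), and zgc:122979 (1.75, SE 0.239), with edgeR adjusted p of 0.0151, 0.0266, 0.0336 and 0.0461. With each of the 12 KO libraries left out in turn, npas4a, egr4 and egr1 stayed past 0.05 in all 12 fits. The other 4 genes stayed in 3 to 6 of them. The count was 3 without DMSO replicate 1, 2 or 3 or without ML233 3 h replicate 2 or 3, and was 15 without ML233 24 h replicate 2 or 4. Total-count scaling left 4 genes, and DESeq2 called 54. With the replicate number as a block 0 genes passed in edgeR, against 651 at an unadjusted p under 0.05. In WT, npas4a went from 28.0 and 27.8 CPM to 5.11 and 3.57 CPM at 3 h in replicates 1 and 2, and from 49.0 and 41.6 CPM to 40.6 and 43.6 CPM in replicates 3 and 4. WT replicates 1 and 2 were thus near the higher-aplnrb pools in level at each time. Each of the called genes was lower at 3 h than in DMSO in WT replicates 1 and 2. For egr4 these went from 14.3 and 12.4 CPM to 4.58 and 4.28 CPM. Replicates 3 and 4 went from 27.7 and 23.0 CPM to 21.4 and 28.6 CPM. At 3 h the KO sets were also replicates 1 and 2 against 3 and 4, unlike in DMSO and at 24 h. The sets and this replicate division therefore cannot be told apart at 3 h.

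**Figure D5:**
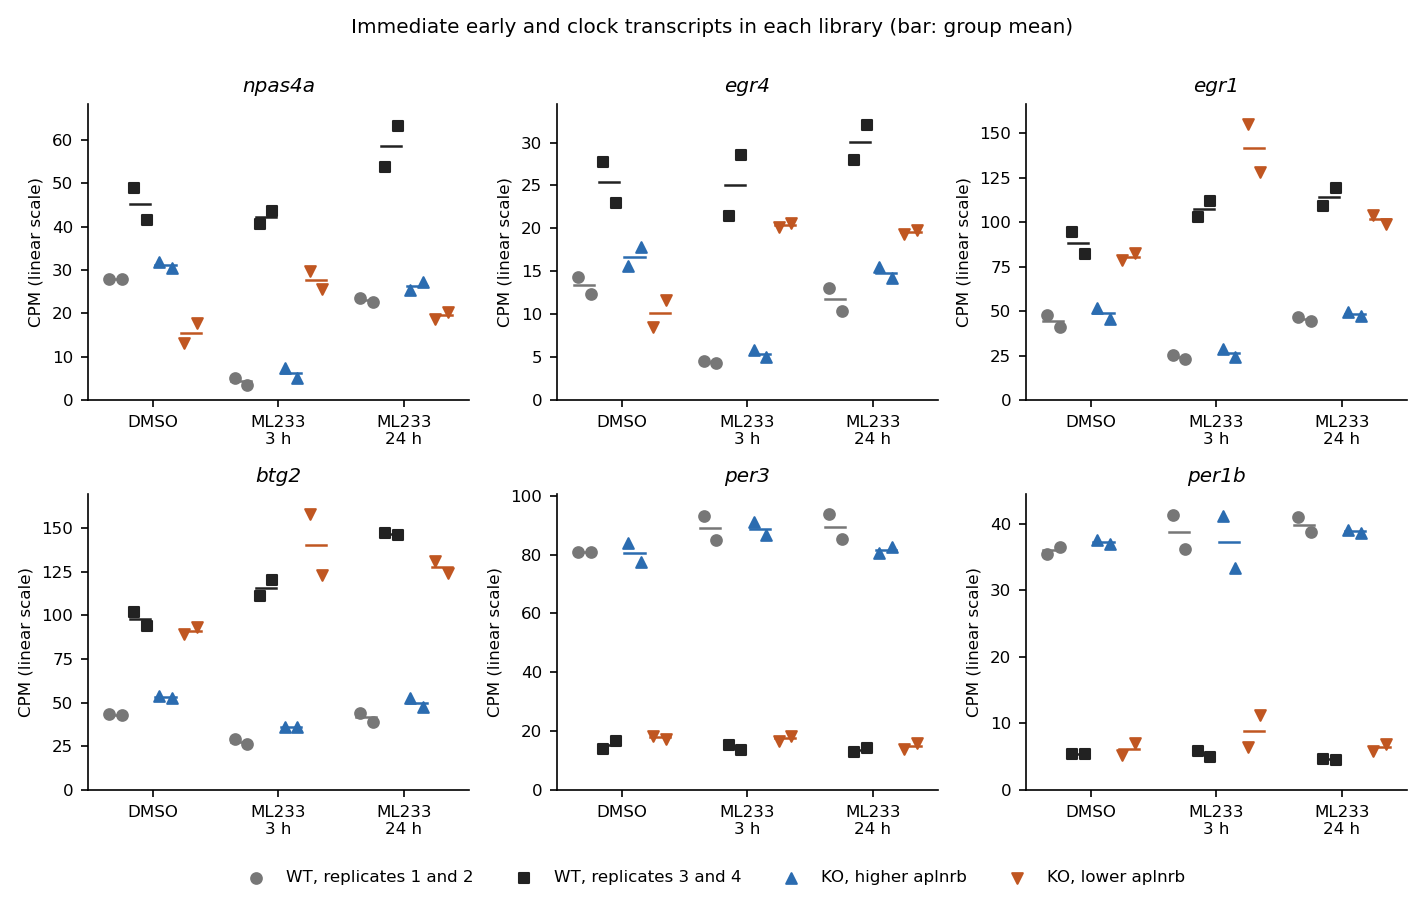
Levels of npas4a, egr4, egr1, btg2, per3 and per1b in each of the 24 libraries, as CPM on linear axes by treatment; points are libraries and bars are means of 2. At 3 h npas4a is at 25.7 to 29.7 CPM in the lower-aplnrb pools and at 4.98 to 7.38 CPM in the higher-aplnrb pools, and per3 keeps its 2 levels at all 3 times.

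Contrasts within a set were added after the data had been seen. Within the higher-aplnrb pools, 18 genes (0.0666%) had an edgeR adjusted p under 0.05 at 3 h, and all 18 fell. Those with the smallest p were npas4a, with a log2 change of -2.33 (edgeR adjusted p = 0.00133, lower in 2 of 2 pools than in either DMSO pool), and gadd45ba, with -1.19 (edgeR adjusted p = 0.00248). The others included egr4 (-1.63), egr1 (-0.88), the ammonia transporter gene rhcga (-1.6), the retinal pigment epithelium gene rpe65a (-0.83), the crystallin gene crybb1l1 (-0.93) and the collagen gene col1a1a (-0.60). Leaving out any of the 6 libraries of the set lowered the count to between 2 and 8, with 3 without DMSO replicate 1, 6 without DMSO replicate 3, 8 without ML233 3 h replicate 1, 2 without ML233 3 h replicate 2, and 7 without ML233 24 h replicate 1 or 3. Within the lower-aplnrb pools no gene (0%) passed at 3 h in edgeR, against 1169 at an unadjusted p under 0.05, and 2 passed without ML233 3 h replicate 3. For npas4a and egr4 the log2 changes there were 0.85 and 1.01, neither past the threshold.

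At 24 h the interaction was past the threshold for no gene (0%) in edgeR, against 4550 at an unadjusted p under 0.05, and DESeq2 called 574. Within the lower-aplnrb pools 1173 genes (4.34%) passed in edgeR at 24 h, 189 (0.7%) higher and 984 (3.64%) lower, while none (0%) passed within the higher-aplnrb pools, against 622 at an unadjusted p under 0.05 and 1 without DMSO replicate 3. That count rested on single libraries. It was 0 without ML233 24 h replicate 2, 0 without DMSO replicate 2 or 4, 1 without ML233 3 h replicate 3 or 4, and 7107 without ML233 24 h replicate 4. No gene or list is therefore named from it.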

How the data were processed

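Gene counts of 24 poly(A) RNA-seq libraries were used as deposited by the authors, who gave raw counts per gene in 1 table with no normalization, per the file headers. The submitters' processing notes name HISAT2 2.0.5, StringTie, featureCounts, R 4.3.2, DESeq2 1.42.1 and GRCz11 without stating their roles or a strand setting, so antisense, overlapping and near-identical genes are uncertain. Coordinates and symbols are those of the table, and guides come from the labels. Per the labels' protocols, mRNA was captured on poly-T beads and the second strand made with dUTP.

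The filterByExpr function (minimum count 10) left 27010 of 37660 genes, and libraries were scaled by TMM over all 24 libraries in edgeR 4.0.16 (limma 3.58.1, R 4.3.3). Totals were 29 to 43.4 M counts per library. Without molecular identifiers, limits from a count of 0 cover counting error only. A quasi-likelihood model of the 12 KO libraries with treatment and set gave log2 differences and two-sided tests of ML233. A model with their interaction gave the difference of effects. Each SE was the size of the log2 difference divided by the square root of its F statistic. For the difference between the sets, the SE does not allow for the choice of the sets. Adjusted p are Benjamini-Hochberg values over all tested genes. The script was tested on simulated data.

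The members and the gene lists were chosen with earlier results of these data known. Named genes were the 8 largest positive and 8 largest negative separating protein-coding genes with a symbol and a mean log2 CPM of at least 1, up to 4 such separating members per list (or its most abundant member), the apelin genes, and the 2 called genes with the smallest p in each test. Other names were chosen after their values were seen. Alternatives were RLE, upper quartile and total-count scaling, no filter, a filter and TMM factors from KO libraries, DESeq2 1.42.0, a replicate block, each treatment alone, other fold thresholds, no set term and each library left out.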

Additional observations from a re-analysis of the deposited data

Results flagged for a closer look

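Within the 2 sets of 6 pools, 84 measures were examined for a pool far from the others by Dixon's test at its 95% critical value of 0.625, and 11 of 168 comparisons passed, where chance gives about 1 in 20, or 8.4. The total count was 30.7 M counts in DMSO replicate 2 of the lower-aplnrb set, with the others at 35.3 to 37.2 M counts. Among genes, mfap4 was at 1.88 CPM in ML233 3 h replicate 2, with 1.27 to 1.42 CPM in the rest of the higher-aplnrb set. Also in that set, sqlea was at 3.89 CPM in DMSO replicate 1, with the others at 6.76 to 7.77 CPM. In the lower-aplnrb set he1.1 was at 34.9 CPM in ML233 24 h replicate 2, with 4.83 to 13.9 CPM elsewhere, and per1b was at 11.3 CPM in ML233 3 h replicate 4, with 5.24 to 7.04 CPM elsewhere.

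Among list levels, 3 pools of the higher-aplnrb set stood apart. Ionocytes were at 0.03 in ML233 3 h replicate 1 (others 0.12 to 0.17), liver plasma proteins at 0.21 in ML233 3 h replicate 2 (others 0.06 to 0.11), and the apelin pathway at -0.43 in ML233 24 h replicate 1 (others -0.35 to -0.31). In the lower-aplnrb set cytosolic heat shock genes were at 1.34 in ML233 3 h replicate 4 (others 0.42 to 0.76). In the same set p53 targets were at 0.45 in DMSO replicate 2 (others 0.52 to 0.56), and muscle protein breakdown genes at 0.75 in DMSO replicate 4 (others 0.46 to 0.56).

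The effect of ML233 at 3 h differed between the sets, by the edgeR interaction test, for 7 genes. The p-values of this test do not allow for the choice of the sets. Each of these genes was also lower at 3 h than in DMSO in WT replicates 1 and 2. The differences of effects, lower- minus higher-aplnrb pools on the log2 scale, were 3.18 for npas4a, 2.64 for egr4, 1.69 for egr1, 1.75 for zgc:122979, 1.3 for gadd45ba, 1.19 for btg2 and 1.11 for dusp1.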

How the results depend on the processing

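No count of genes and no named separating gene changed direction. Some named genes that did not separate the sets changed sign between treatments. The log2 difference of apln was -0.1 in DMSO and 0.05 at 3 h, that of npas4a -1.03 and 2.18, and that of gadd45ba -0.23 and 1.08. Of the list medians, notochord (0.02), metalloproteinases (0.01) and cell cycle (0.15) were -0.19, -0.19 and -0.06 by total counts, and intestinal enterocytes (-0.24) reached 0.13. The count of 3054 separating genes (1090 higher, 1964 lower) became 6179 (2524 and 3655) at 1.5-fold, 334 (156 and 178) at 4-fold and 6464 (2116 and 4348) within 24 h alone. The higher count became 713 by total counts and the lower count 1298 without the 24 h libraries, a setting chosen after seeing the data. With each library left out it was 2657 to 3474, with 1024 to 1191 higher and 1573 to 2295 lower. ML233 at 3 h gave 0 genes in edgeR (1060 unadjusted), also with each library left out, 18 within the higher set (2 to 8 with a library of it left out, 6 without DMSO replicate 3), 0 within the lower set (2 without ML233 3 h replicate 3), and 1 by DESeq2. ML233 at 24 h gave 0 (2176 unadjusted), also with each library left out, and 10 by DESeq2. Within the lower set alone it gave 1173, and 0 to 7107 with a library of that set left out. The 3 h interaction gave 7 genes, 4 by total counts, 27 without a filter, 54 by DESeq2, and 3 to 15 with a library left out. The 24 h interaction gave 0 (4550 unadjusted), 33 without a filter, 574 by DESeq2, and 0 to 4302 with a library left out, the latter without ML233 24 h replicate 4. The causes were not tested. Deviations from the group mean of pools with the same replicate number correlated at -0.489 to 0.624 across genes. The 4 such pairs in different sets were at -0.489 to -0.443, and all 36 pairs in different sets at -0.851 to -0.381. The range thus reflects the sets. Within a set, same-numbered pools correlated at 0.487 to 0.624, inside the 0.332 to 0.658 of all 24 same-set pairs from different treatments. Whether the numbers pair the pools was not tested. With the replicate number as a block, 2816 genes separated (998 and 1818), and the 3 h interaction kept 0 genes (651 unadjusted).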

Other observations

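Separating genes were gathered in a few stretches of the genome, looked for after the values had been seen. On chromosome 9, 24 of 36 tested genes between 22 and 23 Mb were separating, 23 of them lower. The gamma-M crystallin genes there (22022105 to 22361681) numbered 26 tested, of which 19 were lower, with a median log2 difference of -1.20. Summed over these copies, so that reads shared among them count alike, the level was 1070, 1310 and 1530 CPM in the lower-aplnrb pools and 2430, 2710 and 2920 CPM in the higher-aplnrb pools, lowest to highest through the median. WT libraries were at 2350 to 3560 CPM, above every lower-aplnrb pool. The clustered protocadherin genes of chromosome 14 (1887677 to 2369849), which encode neuronal adhesion proteins, behaved otherwise. Of 14 tested, 11 were lower, with a median of -1.46, but their summed level was 241, 286 and 309 CPM against 202, 222 and 229 CPM and so was not lower. These genes overlap and share exons, and the single-gene values are uncertain. On chromosome 22, 5 of 12 genes between 23 and 24 Mb, where the factor H genes lie, were separating and higher. Of 74 tested genes within 2 Mb of aplnrb, 12 (16.2%) were higher and 6 (8.11%) lower. Of 55 near aplnra, 2 (3.64%) were higher and 4 (7.27%) lower. Over all tested genes the shares were 4.04% higher and 7.27% lower. Between 8 and 9 Mb on chromosome 10, which holds aplnrb, 7 of 26 tested genes were higher and 2 lower. That is 34.6% separating, against 11.3% over all tested genes, and its cause was not tested.

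The symbol actc1a stands for 2 gene identifiers. ENSDARG00000076126 (chromosome 19, 47549568 to 47555956) was at 4.58, 5.43 and 7.76 CPM in the lower-aplnrb pools and 36.5, 45.6 and 52.4 CPM in the higher-aplnrb pools (log2 difference -3.0, SE 0.0913). WT libraries were at 3.70 to 16.7 CPM, so here the higher-aplnrb pools stood apart from wild type. ENSDARG00000042535 (chromosome 20, 29476852 to 29483514) was at 508, 602 and 837 CPM against 292, 319 and 363 CPM (log2 difference 0.95, SE 0.0869). The 2 genes resemble each other, and their division of reads is uncertain. Further genes named after their values were seen were the vitamin D hydroxylase gene cyp24a1, at 63.4, 86.0 and 96.0 CPM against 12.8, 15.9 and 22.4 CPM, and the heat shock gene hsp70l, at 19.8 to 168 CPM against 12.9 to 29 CPM, where the sets overlapped.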
